A study of Mus musculus with 6 samples.

Results

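The genes described here make, sense and inactivate prostaglandins, and were measured in fibroblasts sorted from the synovium, the tissue that lines the joint. They are 10 genes chosen by symbol (Ptgs1, Ptgs2, Ptges, Ptges2, Ptgis, Ptgds, Ptger2, Ptger3, Ptger4 and Hpgd), and all 10 were present among the 24348 genes of the count table. Total RNA was sequenced from 6 libraries of adult wild-type C57BL/6 mice. In 3 of them the mice had been given IC intravenously, that is immune complexes of an antigen with its antibodies, and in the other 3 vehicle. The study's methods describe the IC as ovalbumin bound by rabbit anti-ovalbumin antibody. The time between injection and dissection, the exact age and sex of these mice and the number of mice per library are not given in the sources used here. The p-values below therefore set the difference between the groups against the spread between these libraries, part of which may be technical. They may not speak for variation between mice. Library totals ranged from 40114331 to 56714304 counts, so depth overlapped between the groups.

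Prostaglandins are short-lived lipids that act close to where they are made, and in joints they are known for widening vessels and sensitizing pain fibres. Phospholipases free arachidonic acid from membranes, and the cyclooxygenases Ptgs1 and Ptgs2 turn it into prostaglandin H2, from which terminal synthases make prostaglandin E2, prostacyclin, prostaglandin D2 and other products. Ptgs1 is usually expressed at a steady level, whereas Ptgs2 is the inducible enzyme and the main target of drugs that relieve joint pain. Prostaglandin E2 acts through receptors of which EP2 and EP4 raise cyclic AMP and EP3 mostly lowers it, and Hpgd, a dehydrogenase, begins its inactivation.

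The stretches before the starts of both cyclooxygenase genes are shown because Ptgs2 was the member that passed the test and Ptgs1 its closest relative. Both are the 150 bases before the RefSeq start on the plus strand of GRCm38.p6, at chr1:150099881-150100030 for Ptgs2 and chr2:36230276-36230425 for Ptgs1. Capitals mark the letters TTGCGCAA, a palindrome bound by C/EBP factors.
Ptgs2: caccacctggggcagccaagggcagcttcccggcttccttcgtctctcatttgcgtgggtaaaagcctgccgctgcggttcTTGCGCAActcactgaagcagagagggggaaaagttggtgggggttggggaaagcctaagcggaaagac
Ptgs1: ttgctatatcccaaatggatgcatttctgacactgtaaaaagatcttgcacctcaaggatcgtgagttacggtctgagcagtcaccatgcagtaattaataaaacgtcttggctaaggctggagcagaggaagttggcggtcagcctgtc

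RefSeq windows of 250 bases before to 50 bases after the start were found for 9 of the 10 genes, all but Ptgis, and motifs were searched in them on both strands. TTGCGCAA occurred in Ptgs2 and in none of the other 8 windows, and in 0.183% of 32851 windows of that length. Just after the annotated start of Ptgs2, at chr1:150100035-150100058, lies a pair of motifs that overlap, the E-box CACGTG and TGACGT read on the minus strand, which is the core of a cyclic AMP response element. They are in capitals in the following 24 bases.
Ptgs2: tcaccactACGTCACGTGgagtcc
TGACGT occurred in 7.51% of all windows and in none of the other 8 windows. CACGTG occurred in 7.15% of all windows and also in that of Ptges2. The full element TGACGTCA, present in 1.79% of windows, occurred in none of the 9, nor did the letters of an NF-kB site, which 4.79% of windows held. The GC box GGGCGG, found in 35.7% of all windows, occurred in the windows of Ptgs2, Ptges, Ptger3, Ptger4 and Hpgd, and TATAAA, found in 13.6%, occurred in that of Hpgd. These are matches of letters and not measured binding.

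The question addressed was which genes of this pathway changed in fibroblasts after IC. Of the 10 genes, Ptgs2 was called higher by DESeq2, but not by edgeR (adjusted p 0.0883) or limma-voom (0.0585). None of the other 9 passed the DESeq2 test, and Ptgds, with a low mean, was given no adjusted p. Ptgs2 RNA was 1.28-fold higher after IC (95% interval 1.15 to 1.42), while the fitted folds of Ptges and Hpgd were 1.01 each. The prostacyclin synthase Ptgis was 1.26-fold higher without passing the test, and the receptors Ptger3 and Ptger4 and the little expressed synthase Ptgds had lower values in each IC library than in any vehicle library, again without passing it. Calls were made by DESeq2 over all 19925 genes tested, where the p adjusted after Benjamini and Hochberg was under 0.05. On counts simulated from the fitted means and dispersions, with planted changes, DESeq2 gave more false calls than that threshold allows. The share of false calls among the real ones is not known. This rule called 2.10% of all tested genes, 1.03% higher and 1.07% lower after IC, against 1 of these 10 higher and 0 lower. The groups did not overlap for 4 of the 10, Ptgs2 higher and Ptger3, Ptger4 and Ptgds lower, against 15.8% of all tested genes (8.09% higher and 7.67% lower). An unadjusted p under 0.05 was found for 4 of the 10 (Ptgs2, Ptgis, Ptgds and Ptger3), against 9.80% of all tested genes. The median log2 fold change of the 10 was 0.01, and that of all tested genes was −0.002.

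**Figure D1:**
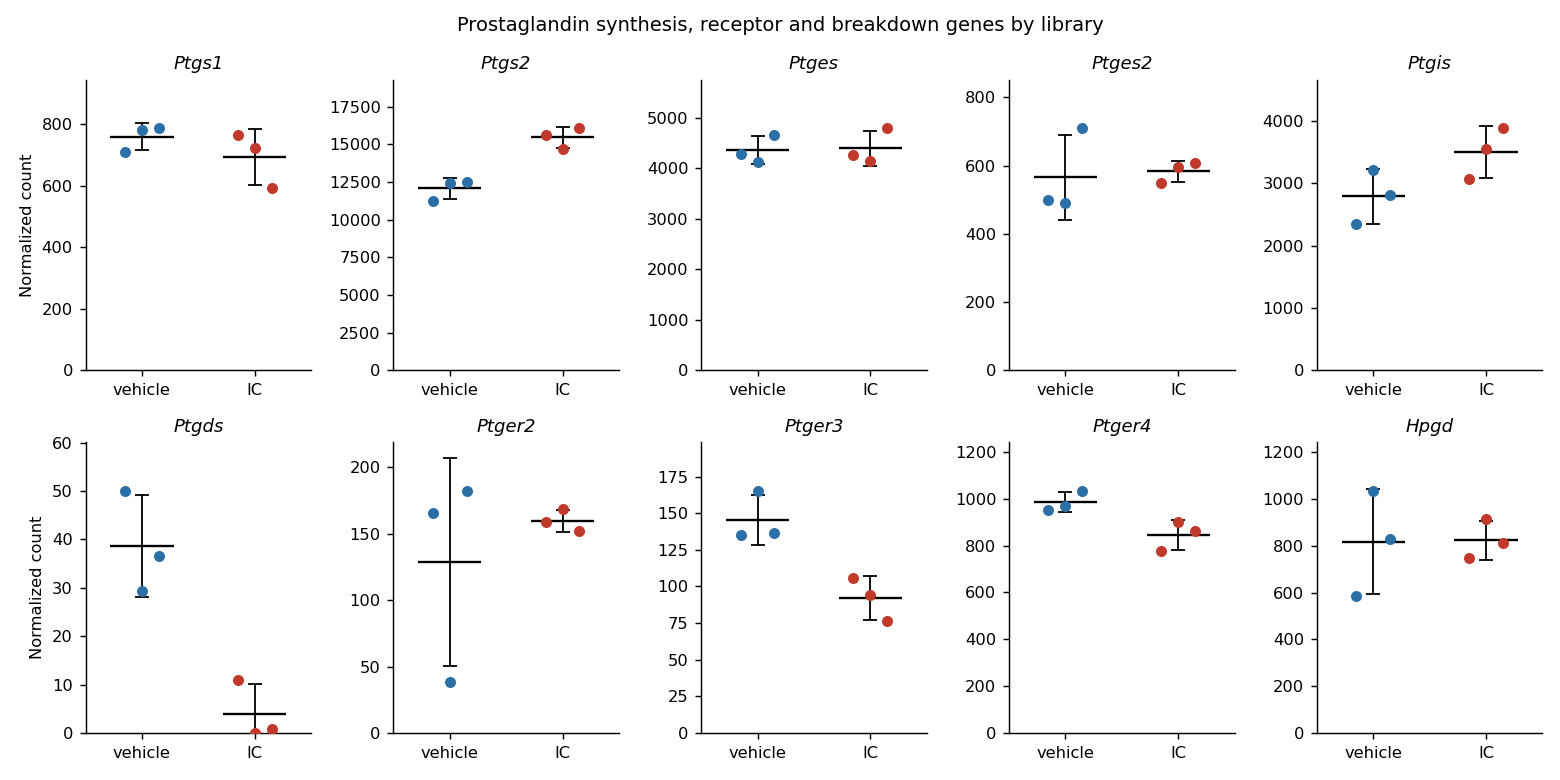
Normalized counts (counts divided by the library's size factor, each vertical axis from 0) of the 10 genes in 3 vehicle libraries (blue) and 3 IC libraries (red). Horizontal lines are means and bars are the SD (n = 3). The IC libraries lie above the vehicle libraries for Ptgs2, below them for Ptgds, Ptger3 and Ptger4, and the groups overlap for the other 6 genes.

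Ptgs2 (ENSMUSG00000032487.8, chromosome 1, 150100031 to 150108227, GRCm38), a protein-coding gene, had 11244, 12451 and 12501 normalized counts in vehicle replicates 1, 2 and 3. It had 15630, 14674 and 16064 in IC replicates 1, 2 and 3. The lowest IC library was thus above the highest vehicle library, and the groups spread little, with an SD of 711 around 15456 after IC and of 712 around 12065 after vehicle (n = 3 each). The log2 fold change was 0.36 ± 0.078 (SE). Its adjusted p was 0.000708 by DESeq2, the 111th smallest p of all genes tested. The call was kept when any 1 library was left out, at adjusted p of 0.00155 to 0.0137, and under 5 other choices of scaling and filtering, at 4.64e-05 to 0.000878. It was not kept by the quasi-likelihood test of edgeR, which gave the same log2 fold change of 0.36 with an adjusted p of 0.0883 and called 0.186% of all genes, nor by limma-voom, with 0.0585. At an unadjusted p the edgeR value was 0.000616.

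**Figure D2:**
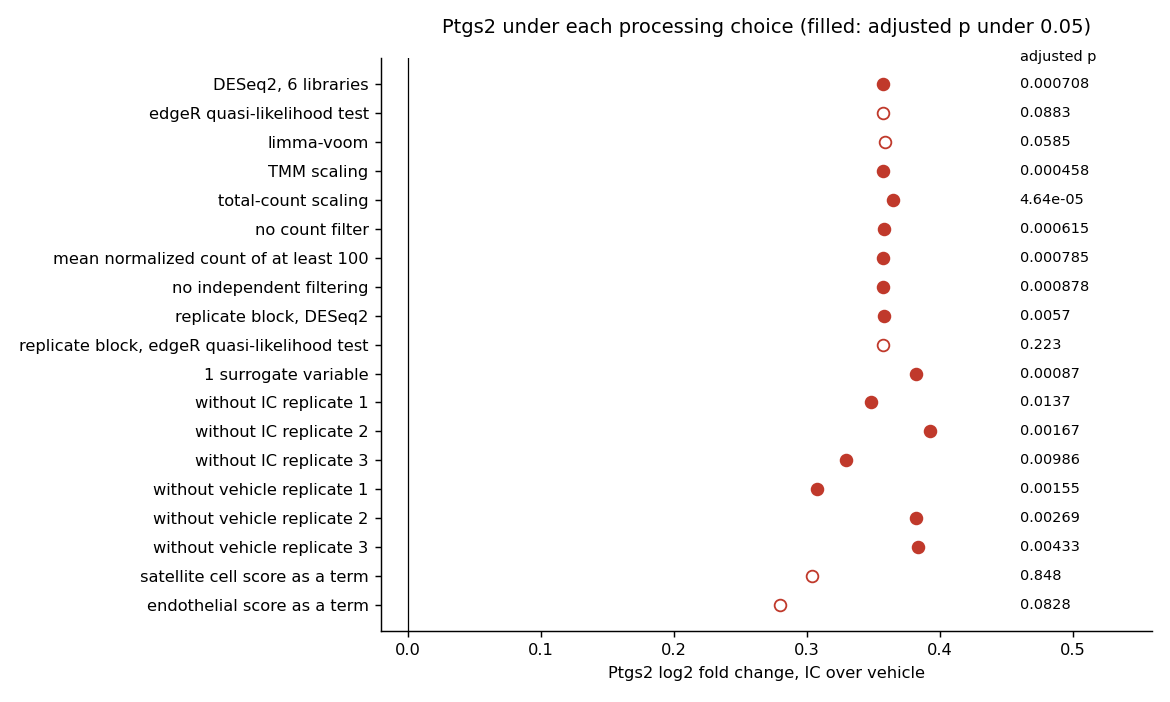
Log2 fold change of Ptgs2, IC over vehicle, under each test, scaling, filter and set of libraries, with the adjusted p beside each point. Filled points have an adjusted p under 0.05. All points lie between 0.28 and 0.39 and so keep their direction, while edgeR with and without the replicate block, limma-voom and both score terms lose the call.

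Ptgs1 (chromosome 2, 36230426 to 36252272), the steady cyclooxygenase, had 708, 782 and 787 normalized counts in vehicle replicates 1, 2 and 3. It had 766, 722 and 592 in IC replicates 1, 2 and 3. The groups overlapped, and IC replicate 3 had the lowest value. The log2 fold change was −0.13 (95% interval −0.43 to 0.17) with an adjusted p of 0.879 by DESeq2. Levels of different genes were compared as RPKM, the counts divided by the length of the merged exons of a gene and by the library total. On that scale the ratio of Ptgs2 to Ptgs1 was 13.48, 13.50 and 13.48 in vehicle replicates 1, 2 and 3 and 17.31, 17.22 and 23.0 in IC replicates 1, 2 and 3. Ptgs2 made up 93.09 to 93.1% of the RPKM of both genes in vehicle libraries and 94.51 to 95.83% in IC libraries, so it was the main cyclooxygenase RNA in both groups.

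Ptgs2 was highest, with a mean of 62.5 over the 6 libraries and a range of 52.8 to 72.4, apart from every other member. Ptgis (25.5) and Ptges (23.2) followed with ranges that overlapped, then Hpgd (10.1), which was apart from its neighbours. Ptgs1 (3.89), Ptger4 (2.86) and Ptges2 (2.36) formed a lower group in which each overlapped the next. Ptger2 (0.581), Ptger3 (0.434) and Ptgds (0.269) were lowest and also overlapped in sequence. Ptgs2 alone gave 52.79 to 53.64% of all counts of the 10 genes in vehicle libraries and 56.96 to 59.95% in IC libraries. The other 9 genes together had 208.9 to 229.2 CPM (counts scaled to the library total) in vehicle libraries and 217.5 to 243.3 CPM in IC libraries, which overlapped.

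**Figure D3:**
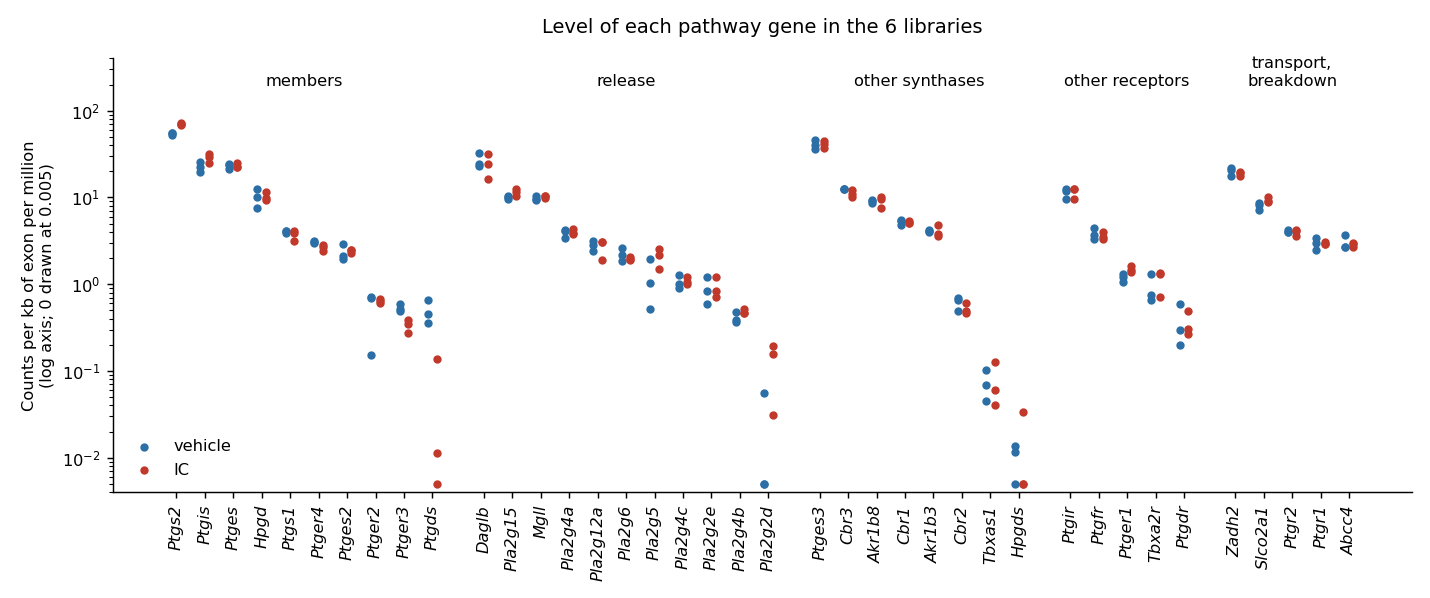
RPKM on a log axis of the 10 genes and of the genes of the 4 lists of prostanoid release, other synthases, other receptors, and transport and breakdown in 3 vehicle libraries (blue) and 3 IC libraries (red), with 0 drawn at 0.005. Ptgs2, at a mean of 62.5, is the highest of the genes in these lists, and Ptges3, at 41.0, is next.

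Among the terminal synthases, Ptges (chromosome 2, 30889471 to 30929863), the inducible synthase of prostaglandin E2, differed little between the groups. It had 4278, 4133 and 4659 normalized counts in vehicle replicates 1, 2 and 3. It had 4266, 4134 and 4793 in IC replicates 1, 2 and 3. The log2 fold change was 0.01 (95% interval −0.17 to 0.20) and the adjusted p 0.988 by DESeq2, so a rise of the size fitted for Ptgs2 lay outside the interval. Ptges2 (chromosome 2, 32395896 to 32405772), a membrane-associated synthase of the same product, had 489 to 710 normalized counts in vehicle libraries and 549 to 607 in IC libraries. The IC values of Ptges2 lay within the vehicle range, and its log2 fold change was 0.05 (adjusted p 0.980).

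Ptgis (chromosome 2, 167191805 to 167240604) makes prostacyclin, which widens vessels and sensitizes pain fibres. It had 2345, 3222 and 2806 normalized counts in vehicle replicates 1, 2 and 3. It had 3063, 3557 and 3886 in IC replicates 1, 2 and 3. Vehicle replicate 2 was above IC replicate 1, so the groups overlapped, and the difference did not pass the test (log2 fold change 0.33 ± 0.127 (SE), adjusted p 0.185 by DESeq2 and 0.381 by edgeR). It passed with 1 surrogate variable as a term (0.0251) and without vehicle replicate 2 (0.0497).

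Ptgds (chromosome 2, 25466709 to 25470046), a synthase of prostaglandin D2, was near the floor of detection. Its raw counts were 61, 31 and 30 in vehicle replicates 1, 2 and 3 and 10, 0 and 1 in IC replicates 1, 2 and 3. Each IC library was thus below each vehicle library, and the 0 in IC replicate 2 allows up to 3 counts by counting error alone. DESeq2 gave it an unadjusted p of 0.00117 and, because its mean was low, no adjusted p. Without independent filtering the adjusted p was 0.0563, and by edgeR it was 0.305. The fitted log2 fold change of −3.31 ± 1.02 (SE) rests on counts at or near 0 and was −2.73 to −6.34 when 1 library was left out. With the replicate number as a block the DESeq2 call was gained, at an adjusted p of 0.0221. Libraries with the same number showed no sign of pairing, though so few libraries cannot settle that.

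The receptors for prostaglandin E2 were expressed at different levels. Ptger4 (chromosome 15, 5206661 to 5244187), which encodes EP4, had 950, 970 and 1034 normalized counts in vehicle replicates 1, 2 and 3. It had 775, 902 and 860 in IC replicates 1, 2 and 3. All IC values were lower, but the difference did not pass the test, the log2 fold change being −0.22 (95% interval −0.48 to 0.04, adjusted p 0.591 by DESeq2). Exons of Ttc33 and of the pseudogene Gm15937 overlap 1.23% and 15.3% of the exon bases of Ptger4 on the opposite strand, and whether reads were counted by strand is not given in the sources used here.

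Ptger3 (chromosome 3, 157566892 to 157645888), which encodes EP3, had 135, 165 and 136 normalized counts in vehicle replicates 1, 2 and 3. It had 106, 94.1 and 76.2 in IC replicates 1, 2 and 3. The groups did not overlap. The log2 fold change was −0.66 ± 0.325 (SE). Its p by DESeq2 was 0.0405 before adjustment and 0.393 after it, and the adjusted p by edgeR was 0.462. The adjusted p stayed at 0.319 to 0.702 when 1 library was left out.

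Ptger2 (chromosome 14, 44988195 to 45003820), which encodes EP2, had 166, 38.7 and 182 normalized counts in vehicle replicates 1, 2 and 3. It had 159, 168 and 152 in IC replicates 1, 2 and 3. Vehicle replicate 2 stood apart, and the other 5 libraries lay between 152 and 182. The log2 fold change was 0.31 (95% interval −0.55 to 1.18, adjusted p 0.906 by DESeq2), and −0.12 without vehicle replicate 2. No change of EP2 RNA was detected, and the interval spans both directions.

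Hpgd (chromosome 8, 56294585 to 56321043), which inactivates prostaglandin E2, had 586, 1035 and 829 normalized counts in vehicle replicates 1, 2 and 3. It had 748, 914 and 812 in IC replicates 1, 2 and 3. The vehicle libraries spread more widely than the IC libraries and enclosed them, the log2 fold change being 0.01 (95% interval −0.36 to 0.39, adjusted p 0.995 by DESeq2). The ratio of Ptges to Hpgd by RPKM was 1.709 to 3.124 in vehicle libraries and 1.937 to 2.528 in IC libraries, so the balance of synthase to inactivating enzyme also overlapped.

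**Figure D4:**
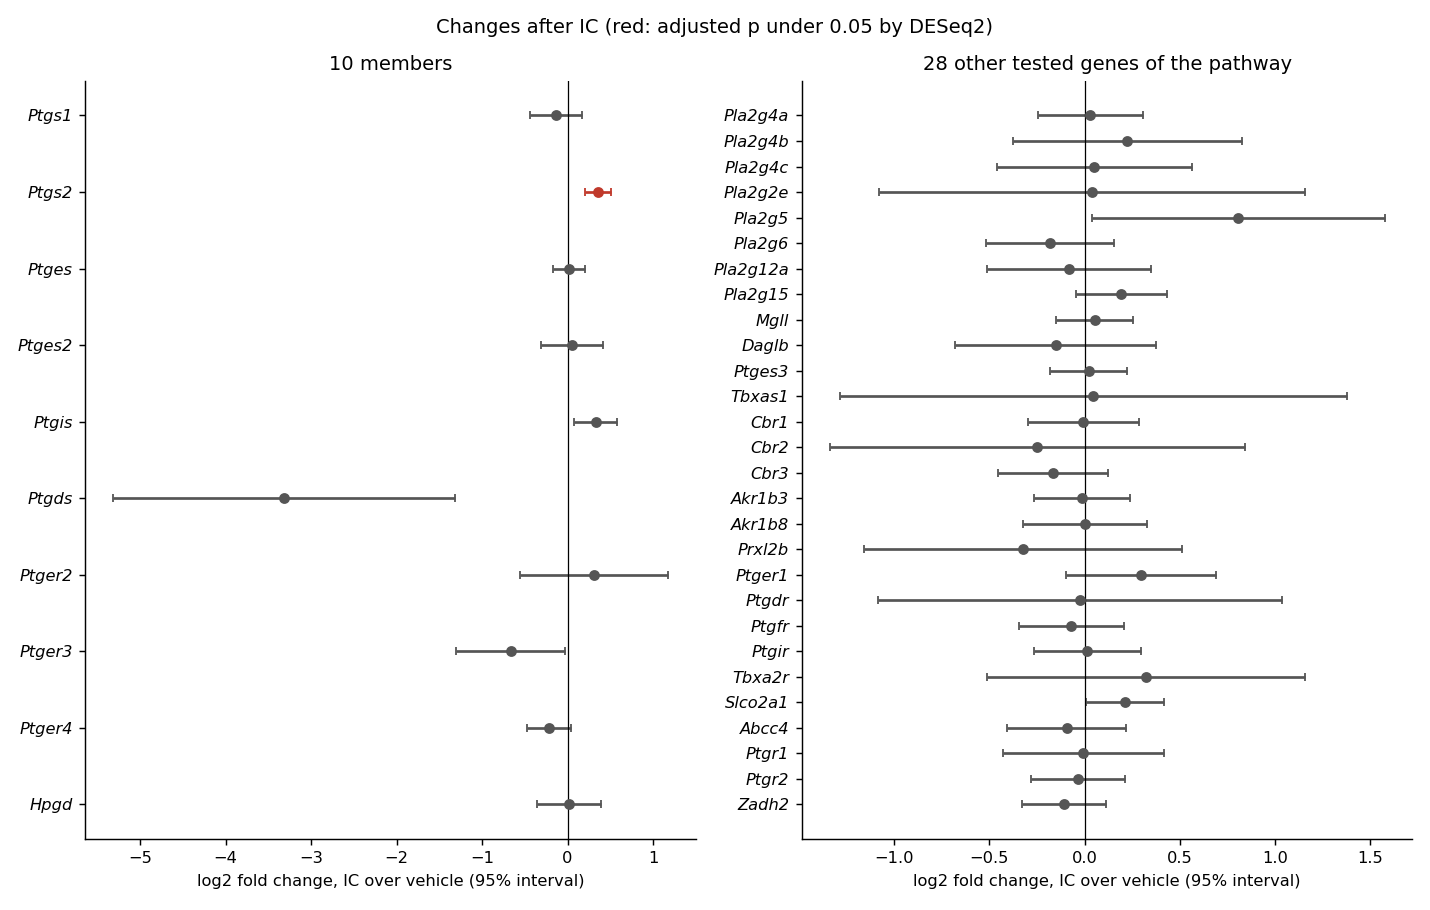
Log2 fold change, IC over vehicle, with its 95% interval for the 10 genes (left) and for 28 other tested genes of prostanoid release, synthesis, reception, transport and breakdown (right), on different horizontal scales. On the left the intervals of Ptgs2 and Ptgis are above 0, and those of Ptgds and Ptger3 below it. Only Ptgs2 is shown in red, since its adjusted p was under 0.05. No gene on the right passed, though the intervals of Pla2g5 and Slco2a1 are above 0.

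The rest of the prostanoid pathway was read from 4 lists, with 30 genes in the table and 28 tested. DESeq2 called 0 of these 28, against 2.10% of all tested genes, and edgeR 0, and 2 had an unadjusted p under 0.05, against 9.80%. Their log2 fold changes ran from −0.32 to 0.81 with a median of −0.001, and 14 were above 0. Among genes that release arachidonate, Pla2g4a, the cytosolic phospholipase that supplies cyclooxygenases, showed a log2 fold change of 0.03 (adjusted p 0.981). Daglb, a lipase that makes an arachidonate-bearing glycerol, had the highest level of that list (25.3 RPKM). Pla2g5, a secreted phospholipase, had the highest log2 fold change of the 28, 0.81, with an unadjusted p of 0.0390 and an adjusted p of 0.386. Slco2a1, the carrier that takes prostaglandins into cells for breakdown, had 4517 to 5705 normalized counts in vehicle libraries and 5748 to 6566 in IC libraries. Those groups did not overlap, and the adjusted p was 0.396.

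Of the other synthases, Ptges3, a co-chaperone with prostaglandin E synthase activity, had the highest level (41.0 RPKM), and its log2 fold change was 0.02. The haematopoietic prostaglandin D synthase Hpgds had at most 10.3 normalized counts in any library and was not tested, and the thromboxane synthase Tbxas1, known from platelets and macrophages, had 17.9 to 55.1. Of the other receptors, the prostacyclin receptor gene Ptgir was highest (11.4 RPKM) with a log2 fold change of 0.02 (adjusted p 0.993). It was thus expressed at a higher level than the 3 EP receptor genes among the 10, whose highest library had 3.19 RPKM. Ptger1, which encodes EP1, had 272 to 349 normalized counts in vehicle libraries and 363 to 417 in IC libraries, with an adjusted p of 0.663. Zadh2, a reductase of prostaglandin metabolites, was the highest of the transport and breakdown list (19.4 RPKM), with a log2 fold change of −0.11.

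Leukotrienes are made from the same arachidonate by lipoxygenases. Of 9 tested genes of that branch, DESeq2 called 1 lower, Cysltr1, a receptor for cysteinyl leukotrienes, against 1.07% of all tested genes, and edgeR called 0. Cysltr1 had 1009, 1108 and 1448 normalized counts in vehicle replicates 1, 2 and 3 and 788, 574 and 946 in IC replicates 1, 2 and 3. The log2 fold change of −0.63 ± 0.189 (SE) passed by DESeq2 (adjusted p 0.0410) and not by edgeR (0.254). The call was kept in 2 of the 6 fits without 1 library, those without IC replicate 3 or vehicle replicate 1, and was lost in the other 4, with 0.164 without IC replicate 1, 0.331 without IC replicate 2, 0.125 without vehicle replicate 2 and 0.429 without vehicle replicate 3. The peptidase Dpep1, which trims leukotriene D4, had the highest level of the list (88.1 RPKM) and a log2 fold change of −0.09.

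A list of genes that respond to cyclic AMP, the messenger raised by EP2, EP4 and the prostacyclin receptor, had 17 tested members. DESeq2 called 4 of them higher, Nr4a2, Sik1, Fosb and Nr4a1, against 1.03% of all tested genes, and 0 lower, and edgeR called 0. The groups did not overlap for 7 of the 17, 4 higher and 3 lower, against 15.8%. The median log2 fold change of the list was 0.02, and 13 members did not pass. The list was chosen with earlier results of these data known, so these counts are only a description. Nr4a2, an orphan nuclear receptor, had 9576, 7780 and 11298 normalized counts in vehicle replicates 1, 2 and 3 and 14741, 15439 and 16752 in IC replicates 1, 2 and 3. It rose by 0.71 ± 0.114 (SE) on the log2 scale, at adjusted p values of 2.77e-07 (DESeq2) and 0.0537 (edgeR). The log2 fold changes of Sik1, a kinase that restrains cyclic AMP signalling, Fosb, an AP-1 subunit, and Nr4a1, another orphan receptor, were 0.33, 0.28 and 0.27, with adjusted p of 0.00166, 0.00350 and 0.00637 by DESeq2 and 0.120 to 0.178 by edgeR. For these 4 genes the groups did not overlap and the DESeq2 call was kept without any 1 library.

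**Figure D5:**
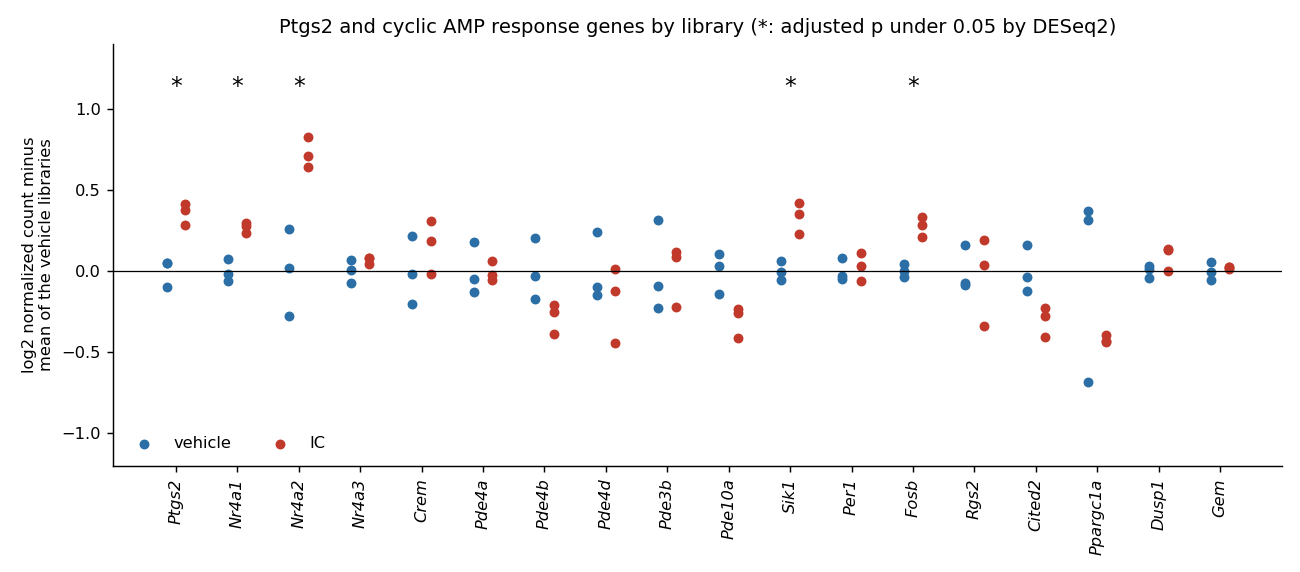
Log2 normalized count of Ptgs2 and 17 tested cyclic AMP response genes in each library, minus the mean of the 3 vehicle libraries. Asterisks mark genes with an adjusted p under 0.05 by DESeq2. The IC libraries (red) lie above the vehicle libraries (blue) for Ptgs2, Nr4a1, Nr4a2, Sik1 and Fosb, and below them for Pde4b, Pde10a and Cited2.

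Other members of the cyclic AMP list did not pass. Nr4a3 had a log2 fold change of 0.07 and Crem of 0.15. The phosphodiesterase genes Pde4b and Pde10a, whose products break down cyclic AMP, and Cited2 had lower values in every IC library, with log2 fold changes of −0.29, −0.30 and −0.31 and adjusted p of 0.132, 0.170 and 0.156. Nr4a1, Nr4a2, Fosb and Ptgs2 are also immediate early genes, which rise within a short time of many stimuli, tissue digestion among them. Fosb was the most abundant gene of the list, at 960.4 to 1221 RPKM. The part of digestion in these levels was not tested. RefSeq windows were found for Nr4a1, Nr4a2 and Fosb, and none of the 3 held TGACGT, TGACGTCA or TTGCGCAA.

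A last list held 17 genes that control Ptgs2 or Ptges RNA, all tested. DESeq2 called 0 higher and 1 lower, against 1.03% and 1.07% of all tested genes. The latter was Nr3c1, the glucocorticoid receptor, whose ligands are known to repress Ptgs2. Nr3c1 had 14491 to 15797 normalized counts in vehicle libraries and 12553 to 13126 in IC libraries, which is −0.24 ± 0.072 (SE) on the log2 scale, with adjusted p values of 0.0376 (DESeq2) and 0.230 (edgeR). That call was kept in 1 of 6 fits without 1 library, the one without vehicle replicate 1. It was 0.0830 without IC replicate 1, 0.190 without IC replicate 2, 0.0666 without IC replicate 3, 0.169 without vehicle replicate 2 and 0.170 without vehicle replicate 3. The groups did not overlap for 4 higher and 1 lower of the 17, against 8.09% and 7.67% of all tested genes. Cebpb, a C/EBP factor, had 7555 to 8924 normalized counts in vehicle libraries and 9250 to 9537 in IC libraries. Its log2 fold change was 0.22 (adjusted p 0.182 by DESeq2). Cebpd, another C/EBP factor, overlapped, with 19566 to 21610 in vehicle libraries and 21210 to 22609 in IC libraries. Its log2 fold change was 0.09 (adjusted p 0.732 by DESeq2). Il1r1, the receptor through which interleukin-1 induces Ptgs2, had a log2 fold change of 0.06, and Zfp36, whose product speeds the decay of Ptgs2 RNA, of 0.13, with adjusted p of 0.937 and 0.533. Egr1, a factor known to act on Ptges, had the highest level of this list (903 RPKM) and a log2 fold change of −0.07.

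The genes whose pattern over the 6 libraries was most like that of Ptgs2 were Slc25a42 and Slc22a4 (r = 0.9973 each) and Slc1a4 (r = 0.9946), by Pearson's correlation of log2(normalized count + 1) among 13435 genes with a mean of at least 100. This is a description over 6 libraries that share a treatment split, and 75 genes had an r above 0.95. Slc1a4 was itself called higher after IC, with an adjusted p of 0.00760 by DESeq2, while Slc25a42 (0.605) and Slc22a4 (0.215) were not called.

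The label of the sorted cells was checked on marker genes. The 10 fibroblast markers were all tested and summed to 45050 to 46900 CPM in IC libraries and 46370 to 56340 CPM in vehicle libraries. Of these, 8 had log2 fold changes below 0, and Col3a1 (−0.38, adjusted p 0.00679 by DESeq2) and Lum (−0.36, 0.00250) were called lower, while Col1a1, Pdgfra and Pdpn did not pass. The lining marker Prg4 was called higher after IC (log2 fold change 0.94, adjusted p 0.0103), while Clic5 and Tspan15, of the same list, were called lower (−0.68 and −0.90), so the 8 lining markers did not move one way. Of 10 sublining markers 1, Smoc2, was called lower. These calls are by DESeq2, which called 1.03% of all tested genes higher and 1.07% lower. The edgeR test called 0 in the fibroblast, lining and sublining lists.

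Of 12 macrophage markers 8 were in the table, summing to 33.6 to 51.6 CPM in IC and 42.2 to 53.4 CPM in vehicle libraries, and 0 of 6 tested were called. Cd68 (1061 to 1506 normalized counts) and Lyve1 (393 to 888) made up most of that sum, while C1qb had no more than 3.58. Of 8 mast cell markers 5 were in the table. Kit had 207 to 274 normalized counts after IC and 369 to 424 after vehicle (adjusted p 0.0534), while Mcpt4 and Cma1 had at most 11.3 and 8.07. The platelet list summed to 28.9 to 34.9 CPM in IC and 30.3 to 34.1 CPM in vehicle libraries, nearly all of it Itga2b (1390 to 1680 normalized counts), while Ppbp had at most 9.92. Neutrophil markers summed to at most 0.740 CPM and none was tested. S100a8, of that list, had 5.38 to 12.4 normalized counts after IC and was at 0 in the 3 vehicle libraries. The other members in the table overlapped between the groups. Ngp had 2.20 to 5.38 after IC and 1.64 to 16.1 after vehicle. Camp had 0 to 9.86 and 0 to 5.74, and Mpo 0 to 15.2 and 0 to 6.56. All of these values are near the floor.

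Markers of other cell types differed between the groups in both directions. All 5 satellite cell markers, genes of muscle stem cells, had lower values in every IC library than in any vehicle library, against 7.67% of all tested genes. DESeq2 called 1 of the 5 lower and edgeR 0. The 5 summed to 5.31 to 29.7 CPM in IC and 37.0 to 89.5 CPM in vehicle libraries. Endothelial markers had log2 fold changes below 0 for 10 of 10. DESeq2 called 3 of the 10 lower, against 1.07% of all tested genes, and edgeR 0. Endothelial markers summed to 219 to 301 CPM in IC and 301 to 356 CPM in vehicle libraries. Mural markers summed to 413 to 514 CPM and 520 to 558 CPM, with 1 of 8 called lower. Skeletal muscle markers summed to 20.1 to 38.7 CPM and 35.1 to 81.4 CPM, with 3 of 9 tested called lower. These calls are by DESeq2, and edgeR called 0 in both lists. Chondrocyte markers were higher in sum, with 676 to 793 CPM in IC and 416 to 643 CPM in vehicle libraries. Most of that sum was Comp, at a mean of 199 RPKM, against 6.70 for Col11a2, the next highest of the list. Acan was called higher by DESeq2 (log2 fold change 1.34, adjusted p 0.00290), while Col2a1 had lower values in each IC library (−0.75, 0.107). The edgeR test called 0 of 5 tested chondrocyte markers. Schwann cell markers summed to 69.9 to 162 CPM and 130 to 167 CPM, and Ngfr, of that list, was called lower by DESeq2 (−1.82, 0.00250) and by edgeR (0.0338). Adipocyte markers summed to 12.3 to 16.2 CPM and 14.2 to 18.5 CPM, with 0 of 5 tested called. Apart from the satellite cell and endothelial scores below, the part of these markers in the results was not tested. In bulk libraries, fewer cells of a type and less RNA per cell cannot be told apart. With a score of the satellite cell markers as a term, a fit chosen after seeing the data, the log2 fold change of Ptgs2 was 0.30 with an adjusted p of 0.848, and 31 genes were called in all. With a score of the endothelial markers it was 0.28 with an adjusted p of 0.0828, and 326 genes were called. The satellite cell score was lower in each IC library than in any vehicle library, so it and the treatment cannot be told apart with 6 libraries.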

How the data were processed

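Total RNA of synovial fibroblasts was sequenced in 3 IC and 3 vehicle libraries, grouped and numbered by their titles. The deposited values are raw counts per gene, for which the authors used Trim Galore, HISAT2 on mm10 and featureCounts. Versions, annotation and strand setting are not given in the sources used here, and the kit named in the labels is not that of the methods. The methods state that sva was used to remove batch effects, and the labels give no batch. The 6 per-sample files were identical to the table.

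A gene was tested if 3 or more libraries held 10 or more counts (19925 genes, with 0.0429% of counts left out). DESeq2 (version 1.42.0) was run with its default Wald test and treatment as the only term. Fold changes are unshrunken, intervals are 95% Wald intervals, and normalized counts are counts divided by the size factor. Independent filtering or an outlying count left 3870 genes with no adjusted p. RPKM and CPM were computed here from total counts and merged exons of GENCODE M21. Sequences are from RefSeq (GRCm38.p6).

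Alternatives were edgeR's quasi-likelihood test (version 4.0.16), limma-voom (version 3.58.1), scaling by TMM or by total counts, dropping the count filter or raising it to a mean of 100 normalized counts, no independent filtering, blocking on the replicate number, adding 1 surrogate variable (sva, version 3.50.0) and leaving out each library in turn. Scores of satellite cell or endothelial markers as a term were chosen after seeing the data. Both count tests were tested on simulated data with known changes, where the median fitted fold was close to the true one but more calls were false than the threshold allows, more so for DESeq2 than for edgeR. The members, the 7 pathway lists and the marker lists were chosen with earlier results of these data known. Named genes are the 10 members, every called pathway gene, the gene of each pathway list with the highest level, and the 3 genes most like Ptgs2. Others were named after their values were seen.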

Additional observations from a re-analysis of the deposited data

How the results depend on the processing

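Of the 10 genes 1 was called. With edgeR, edgeR with the replicate block, limma-voom, the satellite cell score and the endothelial score 0 were called, and with 1 surrogate variable (Ptgis added) and with the replicate block in DESeq2 (Ptgds added) 2. Leaving out 1 library gave 1 to 2. Of the other pathway genes 6 were called, and 0 with edgeR, with or without the replicate block, 1 with limma-voom, 0 with the satellite cell score, 3 with the endothelial score and 4 to 6 without 1 library. Over all genes 419 were called, 37 with edgeR, 62 with limma-voom, 22 with edgeR and the replicate block, 31 with the satellite cell score and 281 to 677 without 1 library. Ptgs2 lost its call under edgeR (adjusted p 0.0883, and 0.223 with the block), limma-voom (0.0585) and both scores. Libraries with the same number did not deviate together (correlations of −0.0918, −0.164 and 0.025), so no pairing was assumed. So few libraries cannot settle whether those with the same number were handled together. The replicate block in DESeq2 called 320 genes.

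Changes of direction occurred in genes that did not pass. Log2 fold changes turned to −0.012 (Ptges), −0.023 (Ptges2) and −0.022 (Ptger2) with 1 surrogate variable, to 0.11 (Ptgs1), −0.18 (Ptges), −0.21 (Ptges2) and −0.090 (Ptger2) with the satellite cell score, and to 0.0057 (Ptgs1), −0.065 (Ptges) and −0.096 (Hpgd) with the endothelial score. Without 1 library they ran from −0.052 to 0.065 for Ptges, −0.044 to 0.24 for Ptges2, −0.12 to 0.64 for Ptger2 and −0.18 to 0.23 for Hpgd. The cause was not tested. Ptgds had 0 to 61 raw counts per library, so its values rest on few counts.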
